A study of Homo sapiens with 16 samples.

Results

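The peaks described here are those of H3K27me3 and H3K4me3 in TKO cells labelled as expressing wild type NSD2 (WT), 3790 and 8140 peaks, or 11930 of the 45429 peaks in the 8 lists of the series. All peaks of the 2 WT lists were taken, and each list was set beside the other. The series profiled both marks by ChIPmentation, a form of ChIP-seq in which sequencing adaptors are put onto the precipitated chromatin by a transposase. Its 4 forms were plain TKO cells and TKO cells expressing wild type NSD2, the substitution D1240A or the substitution F1295A, and the question was whether mutant NSD2 changes the marks. Every sample, in all forms, carried the genotype label KMS-11 WHSC1(+/-) and the cell type label plasma cell. KMS-11 is a multiple myeloma line with the t(4;14) translocation, and WHSC1 is an older symbol for NSD2, which methylates lysine 36 of histone H3. All 4 forms are derivatives of this line. The sources used here do not give the vector, promoter, expression level or number of clones behind the WT cells. No treatment was given.

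H3K27me3 is written by Polycomb repressive complex 2, tends to spread over broad domains, and is known from genes that a cell lineage keeps silent. H3K4me3 is written by the SET1 and MLL complexes and sits as a narrow peak over the start sites of active genes, most of which lie in CpG islands. In embryonic stem cells many developmental promoters carry both marks and are called bivalent, and in mature cells most of these keep only one. A peak list from a population of cells cannot tell a promoter with both marks on one chromosome from a mixture of cells or alleles with a single mark each. In this text 2 peaks overlap where they share at least 1 bp, abut where they share none and lie at most 1 kb apart, and are near where the gap is above 1 kb and at most 10 kb.

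The WT samples were 2 of H3K27me3, 1 of H3K4me3 and 1 of IgG. Both H3K27me3 samples stood in a single list, and how they were combined is not given, so no value below has a replicate check and no p-value is given. The IgG sample was not analysed here. Read totals are not in the lists, so the depth is unknown. Intervals in parentheses after a percentage are exact (Clopper-Pearson) 95% intervals. They cover counting error only, since peaks or genes that lie side by side depend on each other. H3K27me3 covered 55.7 Mb in peaks with a median width of 9553.5 bp, and H3K4me3 covered 30.2 Mb in peaks with a median width of 3293 bp. Signal was used only for a peak's percentile within its own list, where 100 is the strongest. In 11 H3K27me3 peaks the mean signal was above the highest signal, so how those totals were made is unclear.

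The marks at lineage genes were read against the plasma cell label. A gene counts as marked by a peak that comes to 1 kb or less from one of the ends of its RefSeq record. Over all protein-coding genes, 43.6% had H3K4me3 and 9.57% had H3K27me3. Of 10 plasma cell markers, 7 had H3K4me3 alone, among them the plasma cell transcription factor genes IRF4, PRDM1 and XBP1, and TNFRSF17, which encodes the surface receptor BCMA. SDC1, which encodes CD138, the surface proteoglycan used to recognise plasma cells, had both marks. CD38 and SLAMF7, the other two markers, had neither. None of the 5 T cell, 3 NK, 5 myeloid and 5 stromal markers had H3K4me3, and CD4, MPO and COL1A1 had H3K27me3. The peak that marked CD4 lay at the higher-coordinate end of its record, and the strand of CD4 was not known here. Of 6 B cell markers, 3 had H3K27me3 alone, including PAX5 and CD22, the latter at its 3′ end with neither mark at its start site. CD79A, a chain of the B cell receptor complex, had H3K4me3 at its 3′ end and neither mark at its start site. Levels of RNA were not measured in the files used here.

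The promoters below show the classes that the results turn on. Each is the RefSeq window from 250 bases before to 50 bases after the start site (GRCh38.p14), 5′ to 3′ on the gene's strand, with every CG dinucleotide in capitals, since CG content differed between the classes. Both marks were at the start site of FGFR3, a receptor tyrosine kinase gene near NSD2, and of SDC1. The FGFR3 window was chr4:1793043-1793342 on the plus strand with 51 CG, and the SDC1 window was chr2:20225426-20225725 on the minus strand with 27 CG.
FGFR3: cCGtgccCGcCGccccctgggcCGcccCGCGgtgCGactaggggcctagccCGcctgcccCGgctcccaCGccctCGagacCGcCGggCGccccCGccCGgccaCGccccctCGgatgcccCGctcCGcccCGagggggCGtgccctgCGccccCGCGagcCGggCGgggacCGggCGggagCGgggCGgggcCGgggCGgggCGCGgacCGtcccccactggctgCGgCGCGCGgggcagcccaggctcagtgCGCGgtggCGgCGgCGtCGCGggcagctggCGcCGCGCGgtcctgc
SDC1: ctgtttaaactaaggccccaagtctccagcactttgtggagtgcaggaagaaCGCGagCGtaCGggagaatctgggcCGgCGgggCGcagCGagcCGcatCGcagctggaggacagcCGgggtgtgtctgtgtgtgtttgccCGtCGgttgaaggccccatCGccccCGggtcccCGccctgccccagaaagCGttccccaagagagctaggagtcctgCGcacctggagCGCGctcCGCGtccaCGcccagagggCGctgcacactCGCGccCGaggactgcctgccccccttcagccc
PAX5, the factor that holds B cell identity, and L1CAM, a neural adhesion molecule gene, had H3K27me3 alone. The PAX5 window was chr9:37034219-37034518 on the minus strand with 30 CG, and the L1CAM window was chrX:153875965-153876264 on the minus strand with 8 CG.
PAX5: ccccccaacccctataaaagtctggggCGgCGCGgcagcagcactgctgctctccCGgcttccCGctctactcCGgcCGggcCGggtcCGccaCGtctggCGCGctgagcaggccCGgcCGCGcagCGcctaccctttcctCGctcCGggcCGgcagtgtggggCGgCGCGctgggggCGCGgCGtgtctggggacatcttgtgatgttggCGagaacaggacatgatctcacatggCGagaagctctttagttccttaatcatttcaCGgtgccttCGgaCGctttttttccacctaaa
L1CAM: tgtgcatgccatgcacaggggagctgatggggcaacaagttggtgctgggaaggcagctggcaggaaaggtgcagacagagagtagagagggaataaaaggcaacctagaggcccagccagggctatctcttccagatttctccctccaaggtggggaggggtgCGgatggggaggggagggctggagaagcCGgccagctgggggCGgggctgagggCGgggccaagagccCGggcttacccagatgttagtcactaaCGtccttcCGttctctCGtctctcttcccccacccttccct
IRF4 and XBP1 had H3K4me3 alone. The IRF4 window was chr6:391502-391801 on the plus strand with 32 CG, and the XBP1 window was chr22:28800520-28800819 on the minus strand with 40 CG.
IRF4: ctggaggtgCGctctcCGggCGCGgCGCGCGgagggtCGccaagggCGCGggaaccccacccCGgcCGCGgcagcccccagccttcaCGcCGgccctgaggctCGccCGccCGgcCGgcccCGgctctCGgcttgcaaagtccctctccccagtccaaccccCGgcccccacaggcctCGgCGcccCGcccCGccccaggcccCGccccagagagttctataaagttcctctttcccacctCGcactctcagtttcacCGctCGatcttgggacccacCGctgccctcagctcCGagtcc
XBP1: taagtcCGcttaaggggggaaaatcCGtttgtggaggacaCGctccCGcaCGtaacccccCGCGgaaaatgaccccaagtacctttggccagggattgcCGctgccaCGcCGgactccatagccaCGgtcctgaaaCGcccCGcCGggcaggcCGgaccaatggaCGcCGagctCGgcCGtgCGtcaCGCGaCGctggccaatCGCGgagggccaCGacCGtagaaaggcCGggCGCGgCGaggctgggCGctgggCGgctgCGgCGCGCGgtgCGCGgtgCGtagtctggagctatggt

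Few peaks of one mark touched the other, and the genes where they did included FGFR3, SDC1, MYC, the Notch receptor gene NOTCH1 and the Polycomb subunit genes CBX2 and CBX8. Of the H3K27me3 peaks, 155 overlapped H3K4me3 (4.09%, 3.48 to 4.77). A further 52 abutted it (1.37%), 345 were near (9.10%), and 3238 lay farther than 10 kb (85.4%). Of the H3K4me3 peaks, 158 overlapped H3K27me3 (1.94%, 1.65 to 2.26), 52 abutted it (0.639%), 367 were near (4.51%) and 7563 lay farther (92.9%). The 159 overlapping pairs shared 418 kb, which was 0.751% of the H3K27me3 bases and 1.38% of the H3K4me3 bases.

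The nearest peak of the other mark was closer for H3K27me3 than for H3K4me3. Part of this is built in, since the H3K4me3 list is the longer one. An H3K27me3 peak without overlap had its nearest H3K4me3 peak at a median of 66.8 kb (quartiles 26.6 and 141 kb), and 0.275% of them were more than 1 Mb away. An H3K4me3 peak without overlap had its nearest H3K27me3 peak at a median of 315 kb (quartiles 71.7 and 2097 kb), and 2645 of them, 33.1%, lay more than 1 Mb away. With the 3790 strongest H3K4me3 peaks, an alternative added after seeing the data, the medians were 138 and 260.05 kb. The farthest H3K4me3 peak was 47.8 Mb from any H3K27me3 peak.

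H3K4me3 cover was low inside wide H3K27me3 peaks and highest at some distance outside H3K27me3. It was 0.425% of the bases of the 1792 H3K27me3 peaks of at least 10 kb, but 1.76% of those of the 1998 narrower ones, which is close to the first kilobase outside, and 0.751% over all peaks. In the wide peaks, H3K4me3 covered 0.213% of the bases deeper than 5 kb from an edge. Its cover rose to 0.589% at 2 to 3 kb inside the edge and to 1.25% in the last kilobase. Outside the edge it covered 1.85% of the first kilobase, 2.67% of the fifth and 3.94% of the bases 15 to 20 kb away. It was still 3.82% at 30 to 50 kb, then fell to 1.60% at 200 to 500 kb and 0.544% beyond 500 kb, against 1.00% of all bases outside H3K27me3 peaks. Seen from H3K4me3, H3K27me3 covered 1.27% of the first kilobase outside an H3K4me3 peak, 4.08% at 50 to 75 kb and 0.0749% beyond 500 kb. Bases were counted over whole chromosomes, sequence gaps included, which lowers the cover in the farthest zone.

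**Figure D1:**
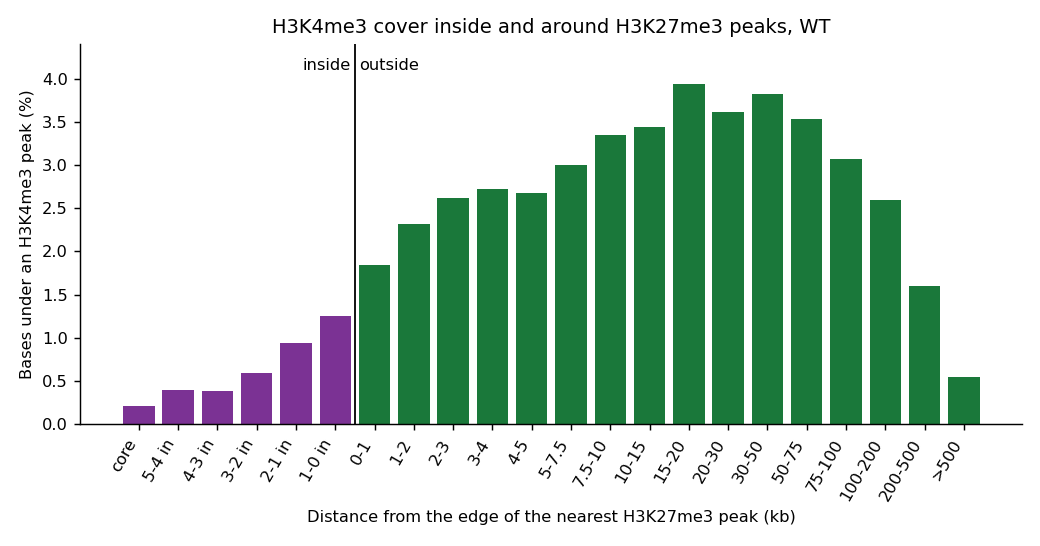
Percentage of bases under a WT H3K4me3 peak (y axis) by distance in kb from the edge of the nearest H3K27me3 peak (x axis), with purple bars inside the 1792 H3K27me3 peaks of at least 10 kb, narrower peaks left out, and green bars outside all H3K27me3 peaks. "Core" is everything deeper than 5 kb, where cover was 0.213%; cover reached 3.94% at 15 to 20 kb outside.

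The breaks between successive H3K27me3 peaks held an H3K4me3 peak mainly when they were long. Of the breaks of 1 to 2 kb, 1 held one (0.617%, 0.0156 to 3.39). The share was 2.49% of 481 breaks of 5 to 10 kb, 20.2% of 578 breaks of 20 to 50 kb and 81.3% of 699 breaks of 100 to 500 kb (78.2 to 84.1). A longer break has more room for a peak, and no share per base was set beside these. H3K4me3 peaks with H3K27me3 within 10 kb on both sides numbered 22, against 397 with it on a single side. The tightest of the 22 was the peak at PCGF1, a subunit gene of Polycomb repressive complex 1, a 3.46 kb peak with H3K27me3 0.462 kb below and 0.990 kb above it. The strongest by total signal lay at AUP1, HTRA2 and LOXL3 on chromosome 2, at the 96.3th percentile of the H3K4me3 list, with gaps of 2.77 and 2.22 kb. Another was the peak at SOCS3, a cytokine signalling inhibitor gene, at the 47.9th percentile. The smallest gap between peaks of the 2 marks was 12 bp, at TRIM28, a corepressor gene of zinc finger factors on chromosome 19, and the next at a gene end was 19 bp, at PDK2. Apart from PCGF1, the genes of this paragraph were chosen after their values were seen.

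Rank differed by contact in opposite ways for the 2 marks, and width differed for H3K4me3. Overlapping H3K27me3 peaks had a median width of 8697 bp (95% interval 7837 to 10222), which does not stand apart from the 9630 bp of those with no shared base. Overlapping H3K4me3 peaks had a median width of 3884 bp (3706 to 4155), against 3283 bp. A wide peak has more bases to overlap with, so a difference in that direction is partly built in. By total signal, overlapping H3K27me3 peaks stood at a median percentile of 58.5 and overlapping H3K4me3 peaks at 33.5. By highest signal the medians were 69.6 and 26.3, and by mean signal 71.003 and 21.8. So overlapping H3K27me3 peaks ranked above the middle of their list and overlapping H3K4me3 peaks below the middle of theirs on all 3 measures.

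The same was seen in steps of 25% of each list. By highest signal, 9 of 939 H3K27me3 peaks in the weakest 25% overlapped H3K4me3 (0.958%, 0.439 to 1.81), against 66 of 948 in the strongest (6.96%, 5.43 to 8.77). H3K27me3 peaks with H3K4me3 anywhere within 10 kb made up 7.14% of the weakest and 23.6% of the strongest step. For H3K4me3 the weakest 25% stood apart, with 78 of 2029 overlapped (3.84%, 3.05 to 4.77). The shares in the next steps were 1.42% and 1.28%, close to the 25 of 2033 in the strongest (1.23%, 0.797 to 1.81). By width, H3K4me3 rose from 0.837% in the narrowest 25% to 3.05% in the widest, while the H3K27me3 shares lay between 3.27% and 4.86% with no steady order. By total signal the H3K27me3 shares ran only from 3.17% to 4.75% between the weakest and strongest steps.

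**Figure D2:**
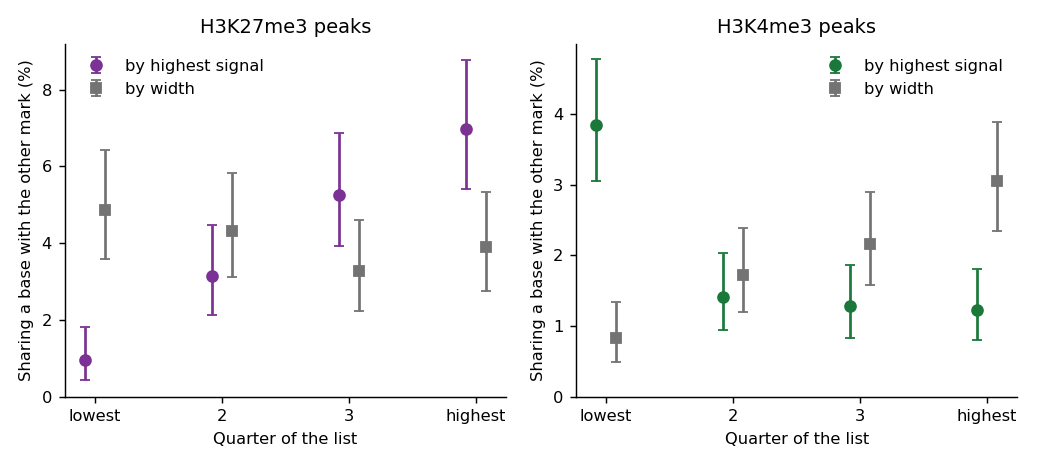
Percentage of peaks that share at least 1 bp with the other mark (y axis) in steps of 25% of each WT list (x axis), ranked by highest signal (coloured circles) or by width (grey squares); bars are exact 95% intervals. H3K27me3 rose from 0.958% to 6.96% by highest signal, and H3K4me3 fell from 3.84% in the weakest step to 1.42% in the next and 1.23% in the strongest.

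Most overlapping pairs crossed edges, and the part of peak width in this share was not tested. In 114 of the 159 pairs the edges crossed (71.7%, 64.02 to 78.5), in 39 the H3K4me3 peak lay wholly inside the H3K27me3 peak (24.5%, 18.1 to 32.0), and in 6 the H3K27me3 peak lay wholly inside the H3K4me3 peak (3.77%). The shared stretch had a median of 2.48 kb and ran from 14 bp to 9.23 kb. In 53 of the 114 edge-crossing pairs the place of highest H3K4me3 signal was itself under H3K27me3.

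The H3K4me3 peaks wholly inside H3K27me3 were weak ones, with a median at the 3.85th percentile of their list by highest signal, against the 36.6th for edge-crossing peaks. The FGFR3 peak was the clearest case. It spanned 6.43 kb (chr4:1792247-1798673), covered the promoter printed above, lay inside a 21.9 kb H3K27me3 peak and stood at the 0.0246th percentile by highest signal. The SDC1 peak spanned 2.80 kb inside an 8.30 kb H3K27me3 peak and stood at the 0.676th percentile, while the H3K27me3 peak stood at the 77.2th percentile of its own list. TXNIP, which encodes a thioredoxin inhibitor, and NOG, which encodes the BMP antagonist noggin, had H3K4me3 peaks inside H3K27me3 at the 6.86th and 1.05th percentiles. FZD4, a WNT receptor gene, had a 3.82 kb H3K4me3 peak inside a 10.2 kb H3K27me3 peak at the 28.9th percentile. An exception was TNRC18, named after its value was seen, where the H3K4me3 peak inside H3K27me3 stood at the 88.4th percentile.

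The longest shared stretch, 9.23 kb at chr1:155076975-155086203, lay at EFNA3, which encodes an ephrin ligand of Eph receptors. It joined peaks that were among the strongest of both lists, at the 99.7th percentile for H3K27me3 and the 98.9th for H3K4me3. EFNA1, a neighbouring ephrin gene, had H3K27me3 at its start and H3K4me3 at its other end. These peaks did not overlap each other. The 1.91 kb shared within 10 kb of its ends lay between that H3K4me3 peak and a separate H3K27me3 peak. Other long shared stretches lay at PLEKHO1 (5.84 kb), TXNIP (5.79 kb) and FOXP2, a forkhead factor gene (5.56 kb). GLI1, the transcription factor of hedgehog signalling, shared 5.25 kb between a 26.2 kb H3K27me3 peak at the 99.6th percentile and a 10.7 kb H3K4me3 peak at the 77.6th. At FOXP2, MYC and the adhesion genes ICAM4 and ICAM5 the arrangement was turned round, with H3K27me3 peaks of 5.56, 4.63 and 5.15 kb lying inside wider H3K4me3 peaks of 6.77, 7.60 and 8.25 kb. The other pairs of this kind lay at MAML3, IMPDH1 and BAMBI.

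**Figure D3:**
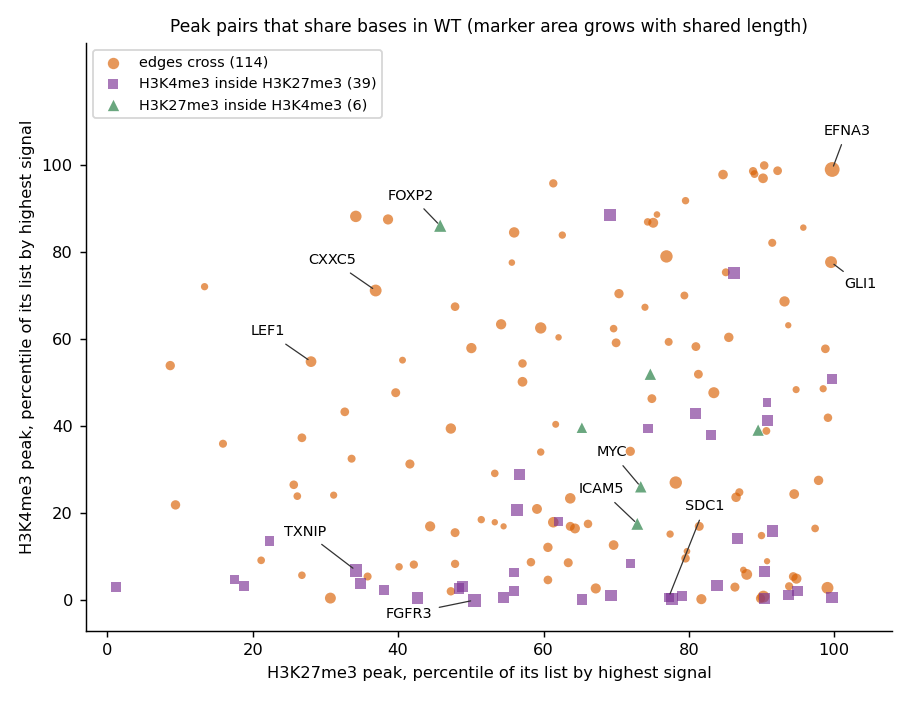
The 159 overlapping pairs of WT peaks by the percentile of the H3K27me3 peak (x axis) and of the H3K4me3 peak (y axis) in its own list by highest signal; marker shape gives the kind of overlap and marker area grows with the shared length. H3K4me3 peaks inside H3K27me3 (squares) had a median at the 3.85th percentile, FGFR3 at 0.0246, while EFNA3 stood at 98.9.

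No H3K27me3 peak held more than 2 H3K4me3 peaks, and 4 held 2. The widest of these was a 103.05 kb peak over LRP1, an endocytic receptor gene, and NXPH4, a neurexophilin gene, at the 99.7th percentile of the H3K27me3 list by highest signal. Its H3K4me3 peaks stood at the 50.9th percentile at LRP1 and at the 0.645th at NXPH4, and together they shared 8.31 kb with it. At GRIN2D, a glutamate receptor subunit gene, and KDELR1, a retrieval receptor gene of the secretory pathway, a 7.53 kb H3K27me3 peak overlapped 2 H3K4me3 peaks and shared 2.52 kb with them. The others lay at THBS3, a thrombospondin gene, and PRICKLE4. ERBB3, a receptor tyrosine kinase gene of the EGF receptor family, carried a separate overlapping pair near each end. At one, a 4.15 kb H3K4me3 peak at the 6.70th percentile lay inside H3K27me3, and at the other the H3K4me3 peak stood at the 99.8th percentile and shared 1.73 kb.

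The place of the peaks along genes differed with contact. A gene end was within 1 kb of the centre in 57.0% of overlapping H3K4me3 peaks (48.9 to 64.8), against 67.3% of abutting, 74.9% of near and 73.9% of far H3K4me3 peaks (72.9 to 74.9). For H3K27me3 the order was the opposite, with 19.4% of overlapping (13.5 to 26.5) and 7.94% of far peaks (7.03 to 8.92) centred at a gene end.

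Among 19974 protein-coding genes, 318 had both marks (1.59%), 1593 H3K27me3 alone (7.98%), 8395 H3K4me3 alone (42%) and 9668 neither (48.4%). Of the 1911 genes with H3K27me3, 16.6% (14.997 to 18.4) also had H3K4me3, against 46.5% of the other genes. The strand was known for 15812 genes, 79.2%, and for these the start site could be used. There 111 genes had both marks (0.702%), 933 H3K27me3 alone (5.9%), 6995 H3K4me3 alone (44.2%) and 7773 neither (49.2%), and 10.6% of genes with H3K27me3 at the start site had H3K4me3 there.

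In a large part of the genes with both marks, the marks did not lie together. In 173 of the 318 (54.4%) both were at the same end, in 145 they were at different ends, and in 165 the peaks shared a base within 10 kb of the ends. Of the 251 with a known strand, 112 had both marks at the start end. In 77 genes H3K4me3 was at the start end and H3K27me3 only at the other, as at TNFRSF14, a lymphocyte receptor gene of the TNF family. The reverse held in 37, as at KCNH6, a potassium channel gene with 25.3 kb of H3K27me3 near its ends and no shared base. H3K27me3 within 10 kb was also found around 615 genes with H3K4me3 alone (7.33%), beside 563 of the 9668 genes with neither mark. CXCR4, the chemokine receptor gene of plasma cell homing, was one of the 615. It had 3.99 kb of H3K4me3 at the 2.06th percentile by highest signal and 7.22 kb of H3K27me3 that did not touch this H3K4me3. In turn 266 of the genes with H3K27me3 alone had H3K4me3 within 10 kb (16.7%). One was BCL6, the repressor gene of germinal centre B cells, whose H3K27me3 peak of 6.73 kb shared 3.69 kb with an H3K4me3 peak that lay beyond the 1 kb window.

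Most plasma cell and secretory genes had H3K4me3, and most B cell genes had H3K27me3 or neither mark. Among all genes, 43.6% had H3K4me3, 9.57% had H3K27me3 and 48.4% had neither. Of 20 plasma cell identity genes, 13 had H3K4me3 alone, 6 had neither and SDC1 had both. IRF4 had 11.4 kb of H3K4me3 within 10 kb of its ends, PRDM1 15.1 kb, TNFRSF17 11.8 kb and XBP1 8.70 kb, all with no H3K27me3 in that range. Their H3K4me3 peaks stood at the 40.6th, 18.7th, 11.3th and 27.5th percentiles of the list by highest signal, and at the 91.0th, 77.6th, 71.3th and 79.6th by total signal. Of 40 genes of the secretory pathway and unfolded protein response, 38 had H3K4me3 alone and 0 had H3K27me3, among them CALR (11.7 kb) and P4HB (13.4 kb), chaperone genes of the endoplasmic reticulum, and DDIT3 (11.4 kb), a stress factor gene. Of 25 B cell programme genes, 15 had neither mark, 7 had H3K27me3 alone and 3 had H3K4me3 alone, the latter being CD79A, BACH2 and CIITA, the last a regulator of MHC class II. At CD79A that peak covered the end of the gene and not its start site. The CIITA peak lay at the higher-coordinate end of the gene record only, and the strand of CIITA was not known here. Around the ends of PAX5, H3K27me3 covered 23.95 kb, at CD22 18.4 kb and at FCER2, the low-affinity IgE receptor gene, 12.1 kb, with no H3K4me3 in that range. The CD22 peak covered the 3′ end of the gene but did not come within 1 kb of its start site.

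Genes of other blood lineages had H3K27me3 in 28% of the list, the same share as B cell genes, against 9.57% of all genes. Among the 25 T cell, NK and myeloid genes, 6 had H3K27me3 alone, 1 had H3K4me3 alone (CEBPA, a myeloid factor gene) and 1 had both. CD4 had 17.7 kb of H3K27me3, CD7 18.9 kb and MPO, the neutrophil peroxidase gene, 18.7 kb, with no H3K4me3 within 10 kb. The H3K27me3 peak that marked CD4 lay at the higher-coordinate end of its record only, and the strand of CD4 was not known here. The gene with both was LEF1, a WNT-responsive factor gene of early lymphocytes, where 3.89 of 4.33 kb of H3K4me3 lay under H3K27me3. Among 40 TNF receptors and ligands, 8 had H3K27me3 alone, such as CD40 (21.2 kb), LTA (21.7 kb) and NGFR (35.5 kb), and 9 had H3K4me3 alone, such as the death receptor genes TNFRSF10A (3.66 kb) and TNFRSF10B (3.84 kb). CD40, whose strand was also not known, was marked at the higher-coordinate end of its record only.

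The myeloma genes split by gene rather than as a group. Of 15 genes of t(4;14) and other myeloma lesions, 9 had H3K4me3 alone, 2 H3K27me3 alone and 2 both. These were 60%, 13.3% and 13.3% of the list, against 42.0%, 7.98% and 1.59% of all genes. NSD2 had 4.49 kb of H3K4me3 at the 1.83th percentile by highest signal and no H3K27me3 within 10 kb, and these marks do not read which form was expressed. Its neighbours SLBP (9.60 kb) and TACC3 (10.4 kb) had H3K4me3 alone, while FGFR3, between TACC3 and NSD2, had both. CCND2, a cyclin D gene known for its expression in t(4;14) myeloma, had 9.12 kb of H3K4me3 alone. CCND1 (13.7 kb) and CCND3 (5.15 kb) had H3K27me3 alone. CCND3 did have 2.75 kb of H3K4me3 within 10 kb of its ends, but beyond the 1 kb window. Of 16 cell cycle genes, 15 had H3K4me3 alone (93.75%), led by CDKN2C (20.005 kb) and CDK4 (17.4 kb). The exception was the CDK inhibitor gene CDKN1A, with 6.04 kb of H3K27me3 and no H3K4me3 within 10 kb.

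Adhesion genes are the class named in the title of the series, and several immunoglobulin-type adhesion genes had both marks near their ends. Of 45 immunoglobulin-type adhesion and selectin genes, 10 had H3K27me3 alone, 8 H3K4me3 alone and 5 both (11.1%, against 1.59% of all genes). The 5 were ICAM4, ICAM5, NECTIN2, F11R and NECTIN4, the last named after its class was seen, and ICAM4 and ICAM5 share a single pair of peaks. With or without the other mark, H3K27me3 was at 33.3% of the list and H3K4me3 at 28.9%, against 9.57% and 43.6% of all genes. In the stronger 50% of each peak list, 2 members had both. L1CAM had 28.3 kb of H3K27me3 alone and CEACAM6 29.2 kb. CNTN2 and NFASC, genes of axonal adhesion, lay under the same 146 kb peak. SELPLG, the selectin ligand gene of leukocytes, had 8.13 kb of H3K4me3 alone, at the 0.172th percentile by highest signal. Of 26 integrins, 4 had H3K27me3 alone, 6 H3K4me3 alone and 2 both. ITGA4 (3.56 kb) and ITGB7 (15.7 kb), which pair as a homing receptor of lymphocytes, had H3K4me3 alone, as did ITGAL (5.68 kb). The ITGAL peak lay outside the gene record, just beyond its higher-coordinate end, and the strand of ITGAL was not known here. ITGA5, the fibronectin receptor subunit gene, had 37.3 kb of H3K27me3 and no H3K4me3. ITGA3 and ITGA7, laminin receptor subunit genes, had both, with 2.84 kb shared at ITGA3 and none at ITGA7. Of 48 cadherins, 7 had H3K27me3 alone, such as CDH22 (35.7 kb) and PCDH1 (21.6 kb), and 8 had H3K4me3 alone, such as CDH2 (4.17 kb). Another 33, CDH1 among them, had neither, and 0 had both, where 1.59% of all genes did. CDH1 did hold H3K27me3 inside its record, more than 10 kb from either end.

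Guidance genes were marked by either modification, with Eph receptor genes among those with most H3K27me3. Of 54 axon guidance and migration receptor genes, 14 had H3K27me3 alone, 16 H3K4me3 alone and 4 both. These were 25.9%, 29.6% and 7.41% of the list, against 7.98%, 42.0% and 1.59% of all genes, so H3K4me3 alone was below its share of all genes. The Eph receptor genes named by rule were EPHA8 at 40 kb, EPHB2 at 36.4 kb and EPHB3 at 38.1 kb of H3K27me3 within 10 kb of their ends, and no H3K4me3. Besides EFNA1 and EFNA3, the genes with both were PLXNA2, a semaphorin receptor gene with 2.48 kb shared, and SLIT1, a repellent ligand gene whose 3.002 kb H3K4me3 peak lay under the H3K27me3 peak with the 1.25th percentile by highest signal. SEMA4C (9.32 kb) and CCR10 (8.02 kb) had H3K4me3 alone. Of 60 matrix genes, 13 had H3K27me3 alone (21.7%), 8 H3K4me3 alone (13.3%) and 3 both (5%). COL1A1 had 26.2 kb of H3K27me3, LAMC3 27.8 kb and TNXB 25.8 kb. The genes with both were LAMA5 (1.79 kb shared), AGRN (3.26 kb) and THBS3 (5.28 kb).

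Developmental factors mostly had H3K27me3 alone, H3K4me3 alone or neither, and the shares with both, 2.56%, 2.70% and 0 in the 3 lists below, lay near the 1.59% of all genes. Over all genes, 7.98% had H3K27me3 alone and 42.0% H3K4me3 alone. Of 39 HOX genes, 12 had H3K27me3 alone, 5 H3K4me3 alone, 1 both and 21 neither, and the 13 with H3K27me3 lay under only 4 peaks. HOXC4, HOXC5, HOXC6 and HOXC10 shared a single 121 kb peak without H3K4me3. The gene with both was HOXB8, beside HOXB7, which had H3K4me3 alone, and HOXB9, which had H3K27me3 alone, so that the marks changed over within this cluster with 1.36 kb shared. HOXA3 (4.55 kb) had H3K4me3 alone, and HOXA9 had neither. Of 74 other homeobox and PAX genes, 16 had H3K27me3 alone, such as PAX2 (34.0 kb), EMX1 (27.03 kb) and CDX1 (26.5 kb), and 13 H3K4me3 alone, such as MEIS1 (9.23 kb) and IRX5 (8.36 kb). LHX4 and PITX3 had both, with 4.17 and 2.83 kb shared. Of 65 T-box, SOX, GATA and basic helix-loop-helix genes, 9 had H3K27me3 alone, such as GATA5 (32.5 kb), GATA2 (26.7 kb) and SOX8 (25.2 kb), 12 had H3K4me3 alone, among them SOX2 (6.61 kb) and SOX4 (8.69 kb), and 0 had both. GATA2 did hold a 3.59 kb H3K4me3 peak wholly inside its H3K27me3 peak, but more than 1 kb from either end of the gene.

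Signalling genes carried H3K27me3 in 34.4% of the list, against 9.57% of all genes. Of 64 genes of WNT, Notch, hedgehog and TGF-beta signalling, 17 had H3K27me3 alone, 11 H3K4me3 alone and 5 both (7.81%). Ligands with H3K27me3 alone included WNT6 (25.7 kb), WNT7B (34.5 kb) and GDF6 (25.01 kb). Receptors with H3K4me3 alone included FZD3 (7.70 kb) and PTCH1 (8.69 kb), while the Notch ligand gene JAG1 also had H3K4me3 (5.93 kb). The genes with both were FZD4, NOTCH1 (1.51 kb shared by the pair at its end), GLI1, NOG and NOTCH4, the last named after its class was seen. Of 40 voltage-gated potassium channels, 11 had H3K27me3 alone and 8 H3K4me3 alone, led by KCNQ5 (4.97 kb). Of 40 keratins, 15 had H3K27me3 alone under 11 peaks, 25 had neither, and 0 had H3K4me3, against 43.6% of all genes.

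Most chromatin regulators and housekeeping genes carried H3K4me3, where 43.6% of all genes did. Of 49 Polycomb and H3K4 or H3K36 methylation regulators, 36 had H3K4me3 alone, led by BMI1 (22.7 kb) and including EZH2 (4.398 kb, 98.4th percentile by highest signal), the catalytic subunit gene of Polycomb repressive complex 2. KDM5B, a demethylase gene of H3K4me3, had H3K27me3 alone (14.7 kb). Both marks were present at 8.16% of the list, including PCGF1, with none shared. CBX2 and CBX8, chromodomain subunit genes of Polycomb repressive complex 1 on chromosome 17, also had both. The pair of peaks at CBX2 shared 0.919 kb and the pair at CBX8 1.69 kb. Of 59 ribosomal protein genes, 55 had H3K4me3 alone, and RPL38 had both with no shared base. Of 20 housekeeping genes, 19 had H3K4me3 alone, ACTB and GAPDH among them. Of 25 olfactory receptors, 24 had neither mark. Among all genes with H3K4me3 alone, MAFG (25.9 kb), MIDN (23.5 kb) and SHC1 (23.3 kb) had the most marked bases. With H3K27me3 alone, AATK and BAIAP2 under a shared 169 kb peak, ADAMTSL2, ADGRB2, ADORA1, CRHR1, DAGLA and DBH were covered over the whole range of 40 kb.

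**Figure D4:**
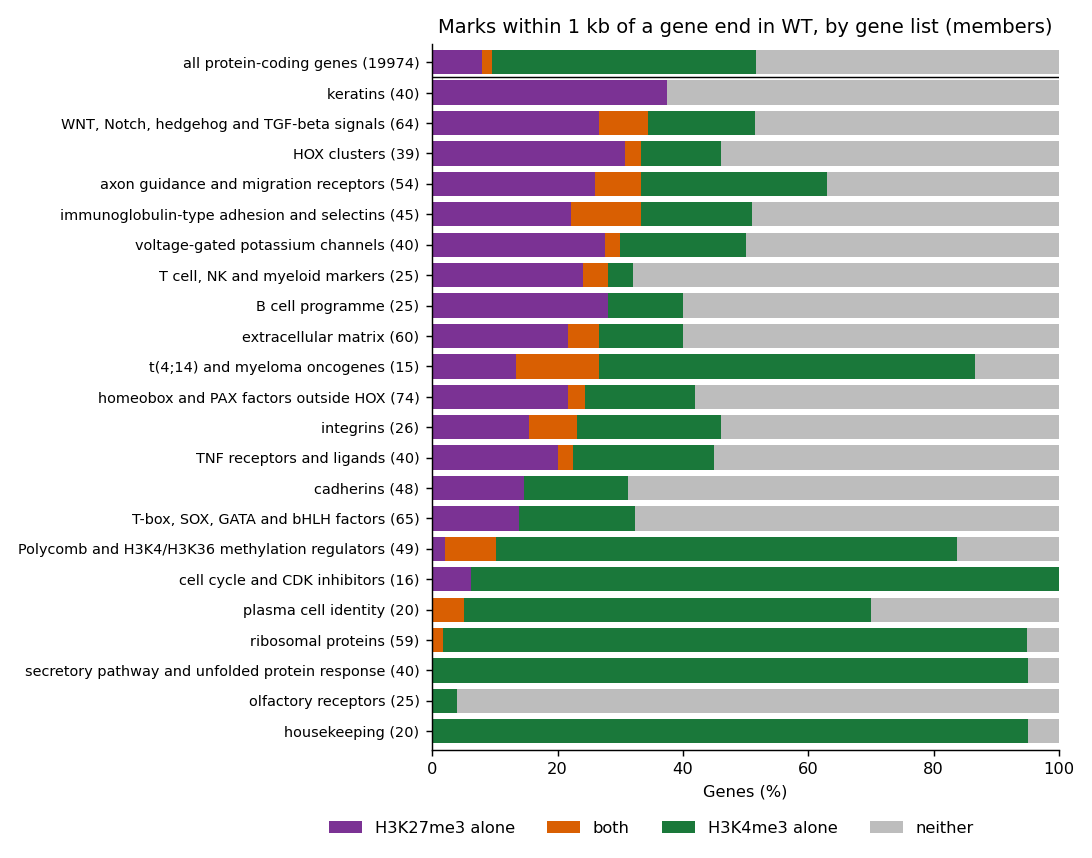
Percentage of the members of each list, with the number of members in parentheses (y axis), that had H3K27me3 alone (purple), both marks (orange), H3K4me3 alone (green) or neither (grey) within 1 kb of a gene end in WT (x axis). The top bar is all 19974 protein-coding genes; keratins had 37.5% with H3K27me3 and 0 with H3K4me3, and secretory genes 95% with H3K4me3.

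Start sites with both marks had the same median CG number as those with H3K4me3 alone, and a higher one than those with H3K27me3 alone. The median number of CG in the 300-base window was 28 at start sites with both marks, 28 with H3K4me3 alone, 15 with H3K27me3 alone and 11 with neither, against 22 over all 15812. At least 15 CG were found in 83.8%, 90.2%, 51.2% and 44.3% of them in the same order, and fewer than 5 CG in 1.80%, 1.32%, 15.97% and 30.6%. In the promoters printed above, FGFR3 with 51 CG and PAX5 with 30 lay above the medians of their classes and L1CAM with 8 below. Among start sites with at least 15 CG, H3K4me3 was present at 16.3% of the 571 with H3K27me3 (13.4 to 19.6) and at 64.7% of the 9753 without it (63.7 to 65.6). Among those with fewer, the shares were 3.81% of 473 and 13.7% of 5015.

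**Figure D5:**
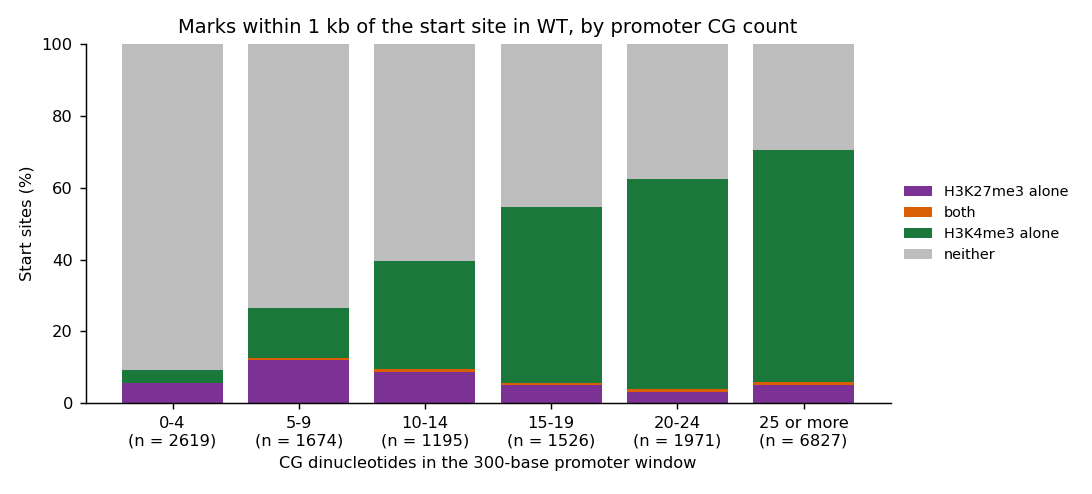
Percentage of start sites in each class in WT (y axis) by the number of CG dinucleotides in the 300-base promoter window (x axis, with the number of start sites). H3K4me3 alone rose from 3.51% of the windows with 0 to 4 CG to 64.6% of those with 25 or more, and H3K27me3 alone was most frequent at 5 to 9 CG, 12.1%.

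Fixed motifs were counted on both strands of the same windows. GGGCGG, the core of GC boxes, in which each match holds a CG already counted above, was found in 75.7% of windows with both marks, 74.9% with H3K4me3 alone, 58.9% with H3K27me3 alone, 43.0% with neither and 58.3% of all windows, and in all 6 printed promoters. TATAAA was found in 5.41%, 4.73%, 10.3%, 14.3% and 9.75% in the same order, and among the printed promoters in PAX5 and IRF4. CCAAT was found in 34.2%, 38.1%, 29.2%, 35.7% and 36.4%, and among the printed promoters in XBP1. A match of these letters is not evidence that a factor binds.

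Chromosomes differed in how often the marks met. Overlaps were absent from chromosomes 13, 21 and X, which held 17, 49 and 24 H3K27me3 peaks. Chromosome 1 held the most, with 32 H3K4me3 peaks overlapped (3.71% of its H3K4me3 peaks), and chromosomes 17 and 20 had similar shares of 3.74% and 3.62%. These 3 chromosomes held 0.706, 0.762 and 0.860 H3K27me3 peaks per H3K4me3 peak. Of their H3K27me3 peaks, 5.09%, 4.91% and 4.21% overlapped, near the 4.09% of the whole list. The segment of chromosome 1 that is 12 Mb long and begins at 150 Mb, with EFNA3, EFNA1, THBS3 and PLEKHO1, held 17 of the 159 pairs and 12.7% of the shared bases. There 15.1% of 106 H3K27me3 peaks and 12.7% of 134 H3K4me3 peaks overlapped the other mark. H3K4me3 peaks of the segment without overlap had a median at the 97.0th percentile of their list by highest signal, and the overlapping ones at the 45.4th. The number of copies of the segment was not measured in the files used here, and its part in these shares was not tested.

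The genes with both marks in WT were set beside the same genes in the other 3 forms, each with its own lists. Both marks were present in TKO at 159 of the 318 (50%, 44.4 to 55.6), in D1240A at 132 (41.5%, 36.04 to 47.1) and in F1295A at 152 (47.8%, 42.2 to 53.4). The share of all genes with both marks was 1.12% in TKO, 0.726% in D1240A and 0.971% in F1295A, against 1.59% in WT. In TKO the rest split between 67 genes with H3K27me3 alone and 77 with H3K4me3 alone, whereas D1240A had 13 and 155 and F1295A 8 and 156. In all 4 forms 78 genes had both marks, and 100 had both in WT alone of the 4. With the same number of peaks taken from every form (2083 for H3K27me3 and 7396 for H3K4me3), 204 genes had both in WT, and both were present at 42.6% of them in TKO, 55.4% in D1240A and 61.3% in F1295A. In the same order of forms, 39.7%, 39.2% and 35.3% of the 204 then had H3K4me3 alone, and 12.3%, 2.45% and 2.45% H3K27me3 alone. List length therefore changed the order of the forms in the share with both marks. It also changed how far TKO stood from the other 2 in the share with H3K4me3 alone.

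Named genes show the patterns behind these counts. GLI1, CBX8, EFNA1, HOXB8, ITGA3, ITGA7, LHX4, PITX3, KCNH6 and ERBB3 had both marks in every form. FGFR3 and SDC1 had both in WT and F1295A and H3K27me3 alone in TKO and D1240A, and their WT H3K4me3 peaks were among the weakest of the list. LEF1, NOTCH1, LAMA5, FOXP2, ICAM4, ICAM5 and PCGF1 had both in WT and H3K4me3 alone in the other 3 forms. MYC had both in WT and TKO and H3K4me3 alone in D1240A and F1295A. EFNA3 had both in WT and TKO and neither in D1240A and F1295A. Of the 159 WT shared stretches, 53 touched both marks in TKO, 49 in D1240A and 62 in F1295A, and 22 did so in all forms. Each form and mark has a single list, and the lists differ in length, so differences between forms cannot be told apart from differences in depth or threshold.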

How the data were processed

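ChIPmentation peak lists of WT cells were used, a single deposited list for H3K27me3 (2 samples) and for H3K4me3 (1 sample). The submitters' processing notes name the build GRCh38 and the tools SEACR 1.3, Bowtie2 2.4.5, Trimmomatic 0.36 and FastQC 0.11.4. How peaks were called (mode, control, threshold), any scaling, and how the H3K27me3 replicates were joined is not given in the sources used here. Each deposited peak has a total and a highest signal (coverage). The deposited H3K27me3 totals were treated as a score, since some exceed what the highest signal and the width allow. These values served only to rank peaks within a list.

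Overlaps, gaps and gene classes were computed in Python 3.11.15 with numpy 2.4.6, pandas 2.3.3 and scipy 1.17.1, and figures with matplotlib 3.10.9. The interval steps were tested on simulated data. Gene records and promoters came from RefSeq tables of GRCh38.p14. The planned rule used the start site, but it was known for only 79.2% of genes, so either end of the record took its place. The members, the 22 gene lists (889 of 890 entries matched) and the tests were chosen with earlier results of these data known. Genes were named by rule: a list of always reported genes, up to 4 members of each gene list with both marks and up to 3 with either mark alone, those with most marked bases among all genes, and those at the longest shared stretches. Some genes that this rule names are not reported here. Alternatives kept stronger or wider peaks, took equal numbers, joined peaks, asked for more overlap or changed the gene window.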

Additional observations from a re-analysis of the deposited data

How the results depend on the processing

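No paired analysis was possible because both H3K27me3 replicates stand in a single list, and for the same reason no replicate could be left out. Of 72 values recomputed under an alternative, 40 stayed within the interval of the reported value, or within 1.5 times of it where it was a share of all genes or of bases, and 32 moved.

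Keeping the stronger 50% of each list lowered the overlap to 1.90% of H3K27me3 and 0.909% of H3K4me3 peaks, and to 0.221% and 0.512% of their bases. Median widths of overlapping peaks became 14419.5 and 4411 bp, and median gaps 121 and 612 kb. Genes with both marks fell to 0.466%, those with H3K4me3 alone to 23.6%, and H3K27me3 genes with H3K4me3 to 6.90%. FGFR3 and SDC1, with weak H3K4me3 peaks, then no longer had both, and no plasma cell, t(4;14), HOX or TNF list member did. With the 3790 strongest H3K4me3 peaks, 1.45% of the peaks of either mark overlapped, 0.671% of genes had both, 21.9% H3K4me3 alone, and 7.01% of H3K27me3 genes had H3K4me3. The median gaps, added after seeing the data, became 138 kb from H3K27me3 and 260.05 kb from H3K4me3. With the gene window widened to 2.5 kb, H3K4me3 was at 21.8% of the H3K27me3 genes. Joining peaks within 5 kb gave 4.92% for H3K27me3. Asking that 50% of the peak be covered left 1.00% and 1.24%, and 1 kb of shared bases 3.38% and 1.61%. By highest and by mean signal, the median percentile of overlapping H3K27me3 peaks was 69.6 and 71.003, and by mean signal that of H3K4me3 peaks was 21.8.

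At start sites, an alternative added after seeing the data, 0.702% of genes had both marks and 10.6% of H3K27me3 genes had H3K4me3. At equal peak numbers both marks were present at 42.6%, 55.4% and 61.3% of the WT genes in TKO, D1240A and F1295A. Leaving out the chromosome 1 segment, also added later, moved none of the values recomputed for it. Of 132 counts of list members, 33 moved by more than 1.5 times, mostly in the stronger 50%.

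Depth is unknown, so the absence of a peak of either mark cannot be read as absence of the mark. By highest signal, the weakest 25% of H3K4me3 peaks held 78 of the 158 that overlapped, and the part of the calling threshold in this was not tested. Nor can 1 list per mark show how far another sample would differ.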
